A study of Rattus norvegicus with 22 samples.

Results

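Enzymes that add or remove acetyl and methyl groups on histones and DNA were followed in the nucleus accumbens (NAc), a forebrain area of the reward circuit, of male adult Wistar rats, an outbred stock. The set was chosen by exact gene symbol. It names 34 genes, of which 25 are among the 17310 genes of the count tables, and Hdac6, Hdac7, Sirt1, Ep300, Kat2b, Kdm5c, Tet1, Tet2 and Tet3 were not analysed here. The listed members are 10 of 13 deacetylases, 2 of 4 acetyltransferases, 6 of 6 histone methyltransferases, 2 of 3 histone demethylases and 5 of 8 genes of DNA methylation. In experiment 1, 5 rats could choose between water and a 6 v/v % solution of ethanol (EtOH) at all times over 8 weeks, and 5 rats had water alone. In experiment 2 all 12 rats, controls included, were given the same choice with 6% EtOH, first for 4 weeks and again for 2 weeks once the gavage had ended. The gavage lasted 3 weeks. In those weeks 6 rats received water through the tube, and the other 6 received 2 daily doses of 2.5 g/kg EtOH in the form of a 30 v/v % solution. The first comparison therefore concerns voluntary drinking, and the second the extra forced dose in rats that also drank. No member differed between the groups of either experiment at a false discovery rate (FDR) under 0.05, and in experiment 2 most members, like most genes, followed a property of the library that ran across both gavage groups.

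Histone acetyltransferases place acetyl groups on histone tails, which loosens chromatin and goes with active transcription, and deacetylases take them off. Histone methyltransferases and demethylases set marks that can accompany either active or silent genes, and DNA methyltransferases put methyl groups on cytosines, mostly before a guanine. These enzymes have been studied in the NAc as possible carriers of lasting responses to alcohol and other drugs, and inhibitors of deacetylases and of DNA methyltransferases have been reported to alter drinking in rodents. RNA levels say nothing of enzyme activity or of the marks themselves, which were not measured.

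One library of polyadenylated RNA was sequenced per rat. Reads on genes numbered 2962291 to 5247386 per rat in experiment 1 and 6713617 to 8765472 in experiment 2. Only the libraries of experiment 2 were strand-specific, so that levels are not set against each other between experiments. All 10 of 10 markers of the projection neurons that make up most of the NAc were listed and had reads in every rat, Drd1 for example at 208 to 471 CPM (reads relative to the library total) in experiment 1. Reads that the counting assigned to no annotated feature are called reads outside genes, or outside annotated genes, here. Since the counting options are not given, they may include reads that lay within a gene. They made up 49.51% ± 0.996 (SD, n = 5) after water and 49.46% ± 0.722 (SD, n = 5) after EtOH in experiment 1 (exact permutation test, two-sided, p = 0.952). In experiment 2 their share was 50.12% ± 3.09 in the 6 water gavage rats and 52.88% ± 3.42 in the 6 EtOH gavage rats (SD; exact permutation test, two-sided, p = 0.175), and ranged from 46.09% to 57.98%. The first principal component of all tested genes that are not members carried 26% of the variance in experiment 1 and 74% in experiment 2. With 74% of the variance on this component, the libraries of experiment 2 stood apart from each other along a single axis. Results of that experiment are given with all rats. For part of the members they are also given without the 4 rats with more than 52% of reads outside genes. These were EtOH gavage rats 1 and 2 and water gavage rats 1 and 5.

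Levels are given as normalized counts, that is, read counts brought to one common library size within an experiment, and they are compared between rats but not between genes. In experiment 1 the enzymes varied little from rat to rat. The biological coefficient of variation, the spread between rats of a group after counting noise is removed, had a median of 8.48% over the 22 members that passed the filter on low counts, against 9.96% over all 8655 genes tested. In experiment 2 the median was 24.1% for the members and 25.2% for all genes, and 7 of 22 members were above 40%, where 15.6% of all genes were. These 7 were Hdac4, Hdac5, Hdac9, Hdac10, Kat2a, Ehmt2 and Kdm6b. In experiment 1, 0 members and 0.266% of all genes exceeded 40%.

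Ehmt2, a methyltransferase that silences genes through methylation of histone H3, spanned a 16.9-fold range over the 12 rats of experiment 2, from 85.8 normalized counts in EtOH gavage rat 1 to 1445 in water gavage rat 2. These are also the rats with the highest and the lowest share of reads outside genes. In experiment 1 the same gene spanned a 1.23-fold range over 10 rats. Hdac5, a deacetylase that moves between nucleus and cytoplasm with neuronal activity, had a range of 12.5-fold in experiment 2, again from EtOH gavage rat 1 at 86.9 to water gavage rat 2 at 1086.

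**Figure D1:**
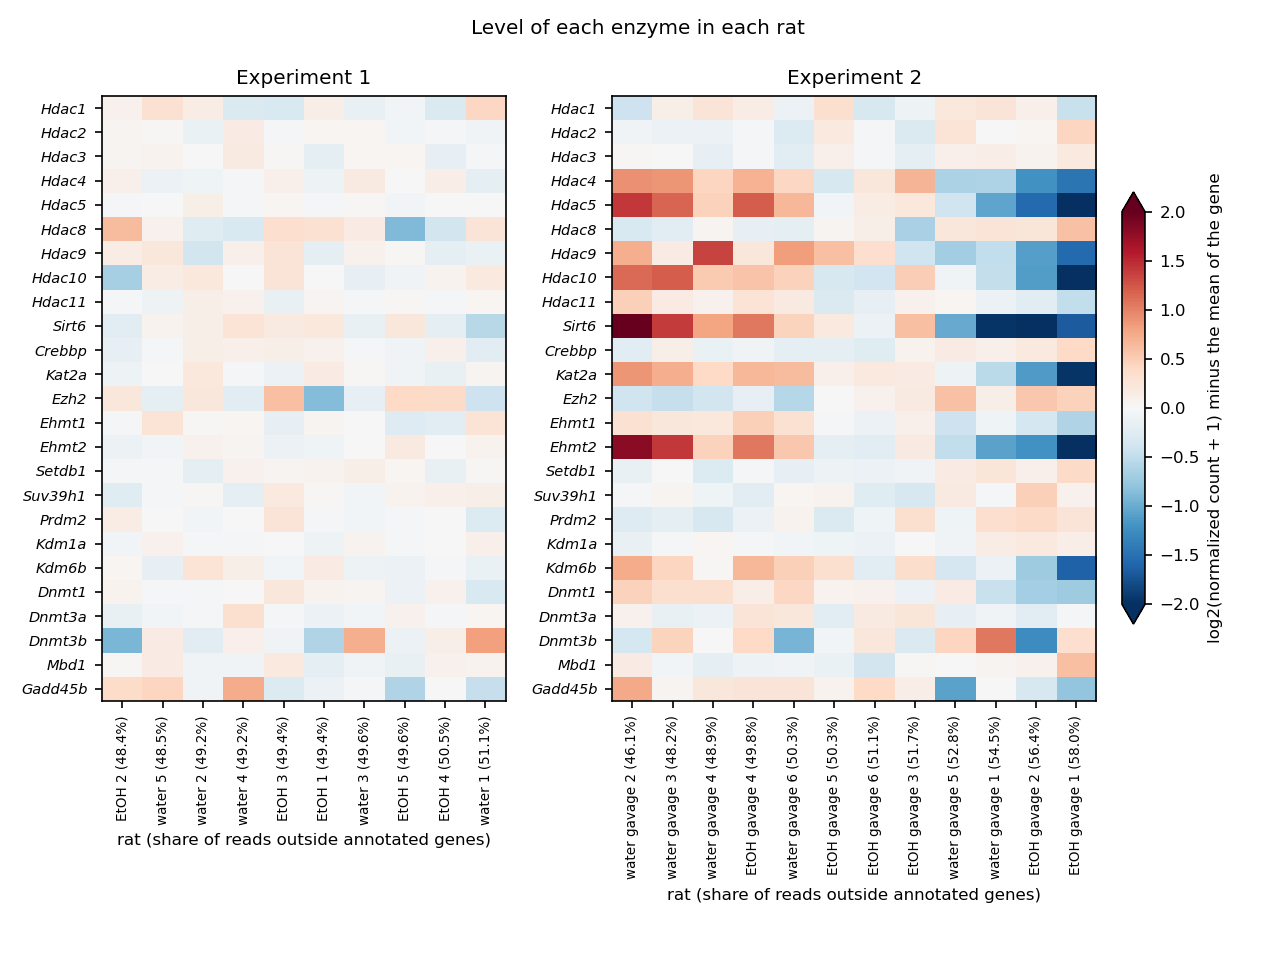
Log2 of the normalized count plus 1 of each of the 25 listed enzymes in each rat, minus the mean of the gene in that experiment, with rats ordered by the share of reads outside annotated genes (given in percent under each column) and colours ending at 2 in both directions. In experiment 2, Hdac4, Hdac5, Hdac10, Kat2a and Ehmt2 go from high in the rats with the lowest shares (46.1% and 48.2%, both water gavage) to low in those with the highest (56.4% and 58.0%, both EtOH gavage), while experiment 1 shows no such order.

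Across the 12 rats of experiment 2, the log2 CPM of 10 members was lower and that of 6 members was higher where the share of reads outside genes was higher, at an FDR under 0.05 over the 8655 genes whose correlations were tested. The background in these directions was 34.7% and 35.1% of all genes, so most genes followed the share, and the median size of Pearson's r was 0.808 over the members and 0.792 over all genes. The members that were lower in rats with a high share were Hdac4, Hdac5, Hdac9, Hdac10, Hdac11, Kat2a, Ehmt1, Ehmt2, Kdm6b and Dnmt1. Those that were higher were Hdac8, Crebbp, Ezh2, Setdb1, Prdm2 and Kdm1a. The other 6 tested members, Hdac1, Hdac2, Hdac3, Suv39h1, Dnmt3a and Mbd1, did not pass. Both measures of a point come from the same library. In experiment 1, where the share covered a narrow range, 0 members and 0% of all genes passed in either direction.

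For Ehmt2, Pearson's r was -0.957 and Spearman's rho -0.958 (permutation tests, p = 1e-05 for each, the smallest that 100000 permutations can give, adjusted p = 7.2e-05 and 0.000171). For Hdac5, r was -0.961 (permutation p = 1e-05, adjusted p = 7.2e-05) and rho -0.937 (permutation p = 6e-05, adjusted p = 0.000431). For Ezh2, the catalytic subunit of the Polycomb complex that methylates histone H3, r was 0.821 (permutation p = 0.00103, adjusted p = 0.00227) and rho 0.86 (permutation p = 0.00063, adjusted p = 0.00216). For Setdb1, a methyltransferase of silent chromatin, r was 0.812 (permutation p = 0.00135, adjusted p = 0.00286) and rho 0.713 (permutation p = 0.0115, adjusted p = 0.0217). Without the 2 rats farthest from the median share, EtOH gavage rats 1 and 2, r was -0.923 for Ehmt2, -0.901 for Hdac5, 0.734 for Ezh2 and 0.684 for Setdb1. With the mean of each gavage group removed, r was -0.949, -0.958, 0.777 and 0.831, so the relation was present within the groups. Crebbp and Kdm1a passed on r but not on rho, with adjusted p = 0.0574 and 0.0978 for rho (permutation tests).

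**Figure D2:**
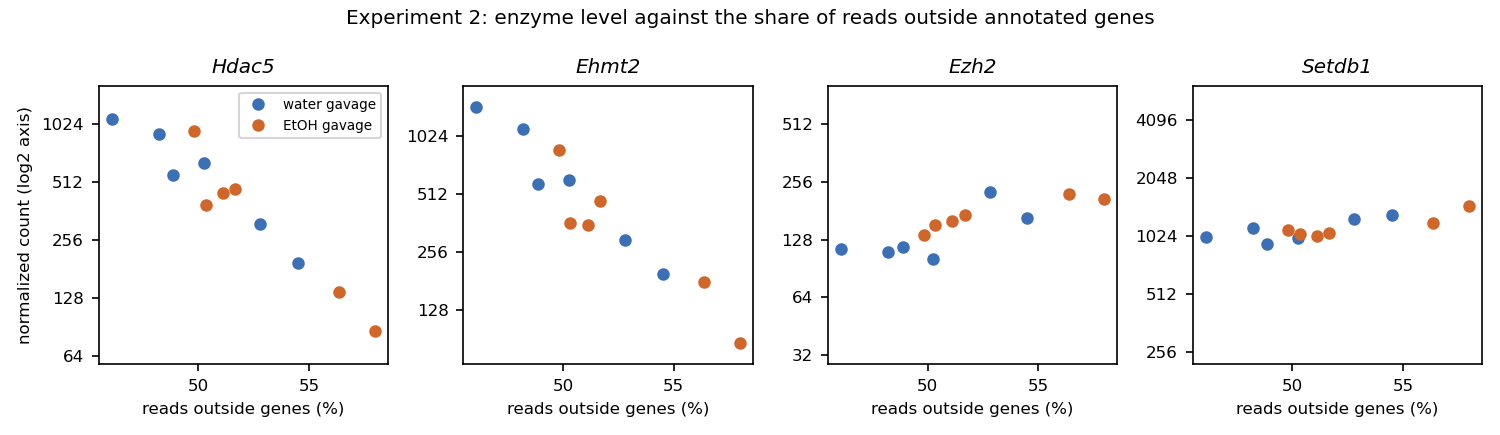
Normalized counts (log2 axis, spanning the same number of doublings in each panel) of Hdac5, Ehmt2, Ezh2 and Setdb1 in the 12 rats of experiment 2 against the share of reads outside annotated genes (%), with water gavage in blue and EtOH gavage in orange. Hdac5 and Ehmt2 go down by 12.5-fold and 16.9-fold from one end to the other, Ezh2 and Setdb1 go up by much less, and both gavage groups lie along the same course.

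The summed markers of some cell types moved with the same share, and the sums of others showed little relation to it. These r were not tested, and the median size of r over the log2 CPM of all genes was 0.792. The summed CPM of 6 of 6 microglial markers had r = -0.883 with the share of reads outside genes over these 12 rats, at 177.4 to 392.2 after water gavage and 161.8 to 323.5 after EtOH gavage, with none of the markers at 0 in any rat. The sum of 5 of 5 neuroblast markers had r = 0.871, at 165.3 to 312.2 and 201.2 to 398, with 1 of them at 0 in some rat. The sum of 5 of 5 markers of cortical excitatory neurons had r = -0.746, at 5.51 to 543.9 and 5.47 to 404.7, with 2 of them at 0 in some rat. Astrocyte markers had r = 0.691 and endothelial and mural markers r = -0.648. For the projection neurons of the NAc r was 0.018, for oligodendrocytes 0.096, for their precursors -0.016 and for ependyma and choroid plexus -0.249. A sum is set mostly by its most abundant markers, and single markers could go the other way. Among the astrocyte markers, the log2 CPM had r = 0.82 for Aqp4 but r = -0.637 for Aldh1l1. A sum with r near 0 can also hold a marker that moved, such as Adora2a of the projection neurons with r = -0.503. The paper states that every RNA sample lay above a lower bound of RIN, a score of RNA integrity. The part of these cells, of RNA quality or of the library in the course of the enzymes was not tested. In bulk tissue, fewer cells of a type and less RNA per cell cannot be told apart.

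The promoters of the 4 members just described are shown because they carry the strongest course in each direction among the members that followed the share and have a single entry in the RefSeq table (build GRCr8). Each is the 150 bases before the annotated start, 5′ to 3′ on the strand of the gene. Capitals mark a GC box, searched as GGGCGG and as CCGCCC, its form on the other strand.
Hdac5 (chr10:87688055-87688204, minus strand): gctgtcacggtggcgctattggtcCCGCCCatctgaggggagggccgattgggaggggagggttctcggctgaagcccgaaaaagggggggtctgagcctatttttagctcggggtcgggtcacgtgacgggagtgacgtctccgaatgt
Ehmt2 (chr20:3940711-3940860, minus strand): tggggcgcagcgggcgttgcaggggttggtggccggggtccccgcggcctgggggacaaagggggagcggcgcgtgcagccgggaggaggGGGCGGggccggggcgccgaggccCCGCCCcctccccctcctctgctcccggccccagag
Ezh2 (chr4:77687184-77687333, minus strand): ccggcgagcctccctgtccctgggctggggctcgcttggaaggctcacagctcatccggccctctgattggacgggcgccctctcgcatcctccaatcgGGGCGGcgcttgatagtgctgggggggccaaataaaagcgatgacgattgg
Setdb1 (chr2:185618983-185619132, minus strand): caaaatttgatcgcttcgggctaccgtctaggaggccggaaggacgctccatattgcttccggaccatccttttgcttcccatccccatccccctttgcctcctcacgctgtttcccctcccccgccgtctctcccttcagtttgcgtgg
Ehmt2 has 2 GC boxes and 82.0% G and C, Hdac5 has 1 box and 62.7%, Ezh2 has 1 box and 65.3%, and Setdb1 has 0 boxes and 58.7%. Of the 25 listed members, 20 matched a single entry of the table, and 13 of these (65.0%) held a GC box in this window, as did 26.0% of all 33469 promoters of the table. The median G and C content was 64.7% over these 20 and 52.7% over all promoters, and the box itself holds only G and C. The part of base composition in this contrast was not tested. Among the members that were lower in rats with a high share, 6 of 8 promoters (75.0%) held a box and the median G and C content was 63.3%. Among those that were higher, 3 of 6 held a box and the median was 64.3%. A match is a run of letters and not a bound site, and these shares rest on few promoters.

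Voluntary drinking was compared with water in experiment 1. Of 22 members tested, 0 passed an FDR of 0.05 (edgeR quasi-likelihood test, Benjamini-Hochberg over all genes), as did 0% of all genes, and 0 passed in DESeq2. An unadjusted p under 0.05 was found for 1 of 22 members and for 5.58% of all genes. This member was lower with EtOH, where the background was 2.58% of genes, and 0 were higher, where it was 3%. The log2 fold changes of 8 members were above 0 and those of 14 were below (50.5% of all genes were below), with a median of -0.013 against -0.0012 over all genes. The estimates were narrow: the 95% interval lay within 1 on the log2 scale, a doubling or a halving, for 22 of 22 members (99% of all genes), and within 0.5 for 20 of 22 (84.9%). No member had groups that did not overlap (0.843% of all genes). Hdac8, Dnmt3b and Gadd45b were under the filter.

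Ehmt1, the partner with which Ehmt2 forms a complex, was the 1 member with an unadjusted p under 0.05. Its normalized counts were 222.8, 186, 181.6, 187.7 and 222.7 in the water rats and 191.1, 180.1, 163.1, 159.1 and 152.7 in the EtOH rats. EtOH rats other than the first lay below every water rat, and EtOH rat 1 lay within the water range. The means were 200.2 ± 20.7 and 169.2 ± 15.9 (SD, n = 5 each), and the log2 fold change was -0.24 (SE 0.097, 95% interval -0.45 to -0.039, unadjusted p = 0.0231, FDR = 0.866, edgeR). The unadjusted p was 0.15 with all 4 groups in one fit and 0.0764 with the first principal component as a covariate. It was also above 0.05 without water rat 1 or 5, or without EtOH rat 4 or 5. The component comes from the same libraries and had a higher mean in EtOH than in water rats. A fit with it as a covariate can therefore take out part of a group difference, for this gene and the others. FDR ranged from 0.597 to 1 over the alternatives.

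Ezh2 had the largest log2 fold change of a member in experiment 1. Its normalized counts were 56.02, 87.35, 66.37, 64.31 and 65.86 in the water rats and 40.31, 87.03, 114.3, 97.5 and 98.51 in the EtOH rats. The groups overlapped because EtOH rat 1 was below and water rat 2 above the others of their groups. The log2 fold change was 0.38 (SE 0.21, 95% interval -0.074 to 0.83, FDR = 0.888, edgeR), and 0.19 with the first principal component as a covariate. The other 4 methyltransferases, Ehmt2, Setdb1, Suv39h1 and Prdm2, had log2 fold changes between -0.054 and 0.14. Prdm2, a methyltransferase of the PR-domain family that has been studied in alcohol-dependent rats, was at 487.5 ± 36.3 and 538.2 ± 48.2 (SD, n = 5 each).

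Among the deacetylases, Hdac1 had the lowest p. This enzyme is the core of several nuclear co-repressor complexes. Its normalized counts were 84.68, 69.88, 56.89, 51.19 and 77.7 in the water rats and 68.91, 67.02, 50.52, 51.32 and 60.88 in the EtOH rats. The groups overlapped over most of their range, and the log2 fold change was -0.19 (SE 0.16, FDR = 0.932, edgeR), with -0.12 without water rat 1 and -0.12 with the first principal component as a covariate. A gene listed as Hdac1l may share reads with it, so its count is uncertain. The other 8 tested deacetylases had log2 fold changes between -0.13 for Hdac10 and 0.092 for Hdac4. Hdac5 was at 918.2 ± 39.2 and 900.9 ± 22.6 (SD, n = 5 each), with a 95% interval of the log2 fold change of -0.14 to 0.086. Hdac8, under the filter, ranged from 23.62 to 35.18 in water rats and from 15.5 to 46.01 in EtOH rats.

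Kat2a, the acetyltransferase of the SAGA co-activator complex, had normalized counts of 470.3, 524.1, 458.1, 441 and 453.6 in the water rats and 504.5, 421.1, 418.3, 406.4 and 431.7 in the EtOH rats. EtOH rats other than the first lay below all water rats, and EtOH rat 1 lay above 4 of the 5. Kat2a had a log2 fold change of -0.11 (SE 0.075, FDR = 0.914, edgeR), with -0.16 without EtOH rat 1 and -0.065 without water rat 2. Crebbp, the acetyltransferase that acts as co-activator of CREB, had a log2 fold change of 0.029, with a 95% interval of -0.14 to 0.2.

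Kdm1a, a demethylase of the same co-repressor complexes as the nuclear deacetylases, had normalized counts of 411.7, 378.2, 401.9, 379.3 and 405.5 in the water rats and 356.3, 371.1, 382, 385.9 and 371.9 in the EtOH rats. The groups overlapped in a narrow band, and the log2 fold change was -0.082 (SE 0.06, FDR = 0.917, edgeR). Kdm6b, which takes off the Polycomb mark that Ezh2 places, had a log2 fold change of -0.0047 (95% interval -0.21 to 0.2).

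Dnmt1, which copies DNA methylation onto the new strand when cells divide and is also present in neurons, had normalized counts of 217.6, 262, 279.4, 271.7 and 264.2 in the water rats and 284.8, 283.1, 316.4, 285.3 and 249.0 in the EtOH rats. The EtOH rats other than the fifth lay above all water rats. This gave a log2 fold change of 0.13 (SE 0.085, 95% interval -0.052 to 0.31, FDR = 0.914, edgeR), with 0.076 without water rat 1 and 0.047 with the first principal component as a covariate. Dnmt3a, which places new methyl groups, had a log2 fold change of -0.089, and Mbd1, a protein that binds methylated DNA, had one of -0.0063. Dnmt3b, also a placer of new methyl groups, was under the filter at 7.19 to 15.6 normalized counts in water rats and 4 to 9.24 in EtOH rats, and Gadd45b, a stress-induced gene linked to removal of DNA methylation, at 23.4 to 55.1 and 21 to 42.

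**Figure D3:**
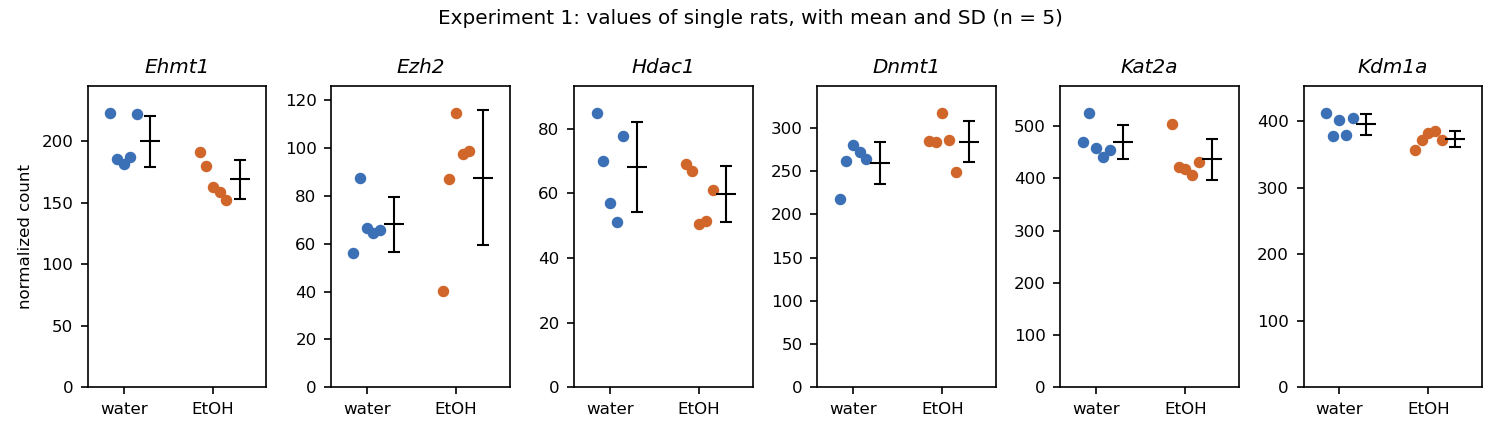
Normalized counts in each rat of experiment 1 for Ehmt1, Ezh2, Hdac1, Dnmt1, Kat2a and Kdm1a, with points for rats (water in blue, EtOH in orange) and bars for the mean ± SD (n = 5 per group) on axes that start at 0. The groups overlap for each gene, and for Ehmt1 the means are 200.2 in water and 169.2 in EtOH rats.

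Other cell type markers differed between the groups of experiment 1 before correction. The summed CPM of 5 of 5 neuroblast markers was 205.2 to 273.1 in water rats and 275.8 to 384.2 in EtOH rats, and that of 4 of 4 markers of oligodendrocyte precursors was 347.6 to 386.5 and 389.1 to 468.7, with no marker at 0 (exact permutation tests, two-sided, p = 0.00794 for both, the smallest that 5 against 5 rats allow, adjusted p = 0.0715 over 18 tests). The study's own lowest p-values for this comparison include those of Dcx, Dlx1 and Cd24 (neuroblast) and Pdgfra (precursor). The tests of these lists thus rest partly on genes already singled out in the same rats and are not independent of them. The sum of 5 of 5 endothelial and mural markers was 273 to 319.4 and 307.2 to 349.3 (exact permutation p = 0.0159, adjusted p = 0.0954). The part of these cells in the levels of the enzymes was not tested.

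Forced EtOH was compared with water gavage in experiment 2. Of 22 members tested, 0 passed an FDR of 0.05 in edgeR, as did 0% of all genes, and 0 passed in DESeq2. An unadjusted p under 0.05 was found for 0 members and for 1.33% of all genes, of which 0.705% were higher and 0.624% lower with EtOH gavage. The log2 fold changes of 10 members were above 0 and those of 12 were below (49.9% of all genes were below), with a median of -0.059 against 9e-04 over all genes. The estimates were wider than in experiment 1, and the 95% interval lay within 1 on the log2 scale for 16 of 22 members (80.9% of all genes) and within 0.5 for 10 of 22 (34.6%). No member had groups that did not overlap (0.0116% of all genes). Sirt6, Dnmt3b and Gadd45b were under the filter.

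Ehmt2 had the largest log2 fold change of a member. Its normalized counts had a lowest, median and highest value of 196.4, 588.9 and 1445 after water gavage and of 85.8, 356.6 and 863.6 after EtOH gavage. The 2 ranges overlapped widely. Its log2 fold change was -0.87 (SE 0.54, 95% interval -2.04 to 0.3, FDR = 0.675, edgeR), and it was 0.059 with the share of reads outside genes and -0.14 with the first principal component as a covariate. Leaving out 1 rat gave values from -1.28 (without EtOH gavage rat 4) to -0.53 (without water gavage rat 2). Of the other 5 methyltransferases, Ezh2 was at 116 (102 to 227.3) and 165.6 (134.6 to 219.8) as median and range, with a log2 fold change of 0.32 (95% interval -0.15 to 0.8). This was 0.091 with the share and 0.14 with the first principal component as a covariate, and 0.52 without water gavage rat 5. Ehmt1, Setdb1, Suv39h1 and Prdm2 had log2 fold changes between -0.15 and 0.16.

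Hdac10, a deacetylase known to act on polyamines, had the lowest p of its class. Its normalized counts had a lowest, median and highest value of 56.7, 111.2 and 184.8 after water gavage and of 18.7, 61.6 and 117.1 after EtOH gavage. The 2 lowest rats were EtOH gavage rats 1 and 2, and the rest of the EtOH group lay within the water range. The log2 fold change was -0.81 (SE 0.42, 95% interval -1.72 to 0.1, FDR = 0.675, edgeR), and -0.23 with the share and -0.35 with the first principal component as a covariate. The class IIa deacetylases Hdac4, Hdac5 and Hdac9, which shuttle out of the nucleus when neurons are active, had log2 fold changes of -0.36, -0.58 and -0.62, with SE of 0.41, 0.53 and 0.43. With the share as a covariate these values were 0.23, 0.2 and -0.095, so those of Hdac4 and Hdac5 turned positive, and with the first principal component they were 0.11, 0.025 and -0.19. Leaving out 1 rat gave -0.56 (without EtOH gavage rat 4) to -0.18 (without EtOH gavage rat 1) for Hdac4, -1 (without EtOH gavage rat 4) to -0.34 (without water gavage rat 2) for Hdac5 and -0.83 (without EtOH gavage rat 5) to -0.36 (without water gavage rat 4) for Hdac9. Hdac11, the lone member of its class of deacetylases, had one of -0.26 (SE 0.14), and -0.11 with the share and -0.13 with the first principal component as a covariate. The nuclear class I enzymes Hdac1, Hdac2, Hdac3 and Hdac8 had log2 fold changes between -0.096 and 0.11. Sirt6, a deacetylase that uses NAD and is tied to DNA repair, was under the filter and ranged from 6.07 to 129.8 after water gavage and from 5.94 to 55.8 after EtOH gavage, a 21.8-fold range in all.

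Kat2a had a lowest, median and highest normalized count of 426.2, 888.3 and 1142 after water gavage and of 159.5, 680.8 and 984 after EtOH gavage. EtOH gavage rats 1 and 2 were again the lowest, and the others overlapped with the water group. The log2 fold change was -0.5 (SE 0.38, FDR = 0.675, edgeR), but -0.011 with the share and -0.11 with the first principal component as a covariate. Leaving out EtOH gavage rat 1 gave -0.3. Crebbp had one of 0.063 (95% interval -0.22 to 0.34).

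Kdm6b had a lowest, median and highest normalized count of 121.6, 180.8 and 256.5 after water gavage and of 49.5, 161.5 and 244.1 after EtOH gavage. Apart from the lower end the groups covered the same range, and the log2 fold change was -0.27 (SE 0.33, FDR = 0.704, edgeR). It was 0.097 with the share and 0.03 with the first principal component as a covariate, and leaving out 1 rat gave -0.46 (without EtOH gavage rat 4) to -0.081 (without EtOH gavage rat 1). Kdm1a had one of 0.03, with a 95% interval of -0.17 to 0.23.

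Dnmt1 had the lowest p of all members in experiment 2. Its normalized counts had a lowest, median and highest value of 264.2, 445.8 and 495.1 after water gavage and of 218.9, 353.5 and 390.7 after EtOH gavage. Apart from water gavage rat 1, at 264.2, each water gavage rat lay above every EtOH gavage rat. Its log2 fold change was -0.4 (SE 0.19, 95% interval -0.81 to 0.023, unadjusted p = 0.062, FDR = 0.675, edgeR), and -0.14 with the share and -0.18 with the first principal component as a covariate. Dnmt3a and Mbd1 had log2 fold changes of 0.073 and 0.067. Dnmt3b ranged from 7.65 to 33.4 and from 5.94 to 20.8, and Gadd45b from 11.6 to 43.9 and from 14.3 to 34.

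Without the 4 rats with more than 52% of reads outside genes, 0 members had an FDR under 0.05 and 5 had an unadjusted p under 0.05, where the background was 10.9% of genes in either direction. Hdac10 then had a log2 fold change of -0.69, Kat2a of -0.34, Ehmt2 of -0.84, Dnmt1 of -0.3 and Ezh2 of 0.51, each with FDR = 0.451 in edgeR, where FDR ranged from 0.394 to 1 over the alternatives for these genes. Members above that p included Hdac4 at -0.27, Hdac5 at -0.48, Hdac9 at -0.58, Hdac11 at -0.22, Ehmt1 at -0.11 and Kdm6b at -0.095. These 4 rats were chosen after their values were seen, 2 from each group. In the rats left, the share was 46.09, 48.21, 48.87 and 50.26% after water gavage. After EtOH gavage it was 51.68, 49.82, 50.33 and 51.12%, so the share still went with the gavage group. The 5 members with an unadjusted p under 0.05 each changed in the direction of their relation with the share. Gavage and share cannot be told apart in these rats.

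**Figure D4:**
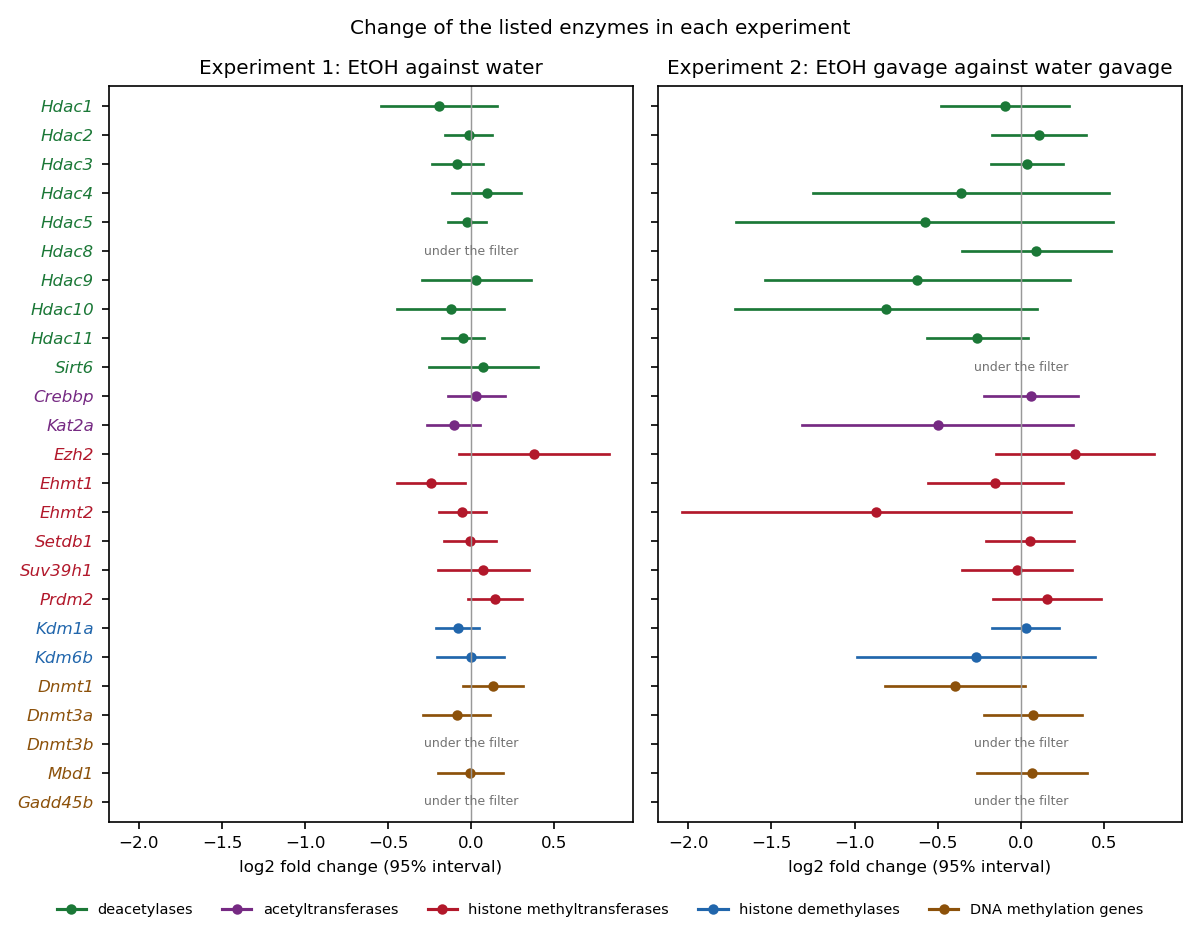
Log2 fold change (EtOH minus control) of each enzyme with its 95% interval in experiment 1 (EtOH against water) and experiment 2 (EtOH gavage against water gavage), coloured by class, with a grey line at 0. Intervals are short in experiment 1, where that of Ehmt1 (-0.45 to -0.039) lies off 0, and long in experiment 2 for Ehmt2, Hdac5, Hdac10, Hdac9, Hdac4 and Kat2a, and each of those includes 0.

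The difference between the 2 effects, forced minus voluntary, was tested for the 21 members that passed the filter in both experiments. It had an FDR under 0.05 for 0 of them and for 0% of all genes in edgeR, for 0 members in DESeq2, and an unadjusted p under 0.05 for 1 member (1.88% of all genes). This was Dnmt1, with a log2 fold change of 0.13 in experiment 1 and -0.4 in experiment 2. The difference was -0.52 (SE 0.24, 95% interval -1.02 to -0.032, unadjusted p = 0.0379, FDR = 0.814, edgeR). The fit shares 1 estimate of the spread between experiments whose spreads differed, and exposure, control group and library type changed together between them and cannot be told apart.

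Of a wider list of genes of the same kinds, 74 were listed and 64 were tested in each experiment. In experiment 1, 0 of them had an FDR under 0.05 in edgeR (0% of all genes). An unadjusted p under 0.05 was found for 0 of them and for 5.58% of all genes. Their median log2 fold change was -0.017 against -0.0012 over all genes. The lowest p belonged to 3 methyltransferases, Dot1l at -0.13, Whsc1l1 at 0.13 and Setd7 at 0.2 as log2 fold change. In experiment 2, 0 had an FDR under 0.05 (0% of all genes), and the median log2 fold change was 0.04 against 9e-04 over all genes. An unadjusted p under 0.05 was found for 1.33% of all genes and, near that share, for 1 of the 64 genes. This was Gadd45a, a relative of Gadd45b, at 86.7 ± 19.5 after water gavage and 132.4 ± 59.9 after EtOH gavage (SD, n = 6 each), with a log2 fold change of 0.61 (SE 0.27, unadjusted p = 0.0441, FDR = 0.675, edgeR). The demethylase Phf2 and the myelin-rich deacetylase Sirt2 followed with log2 fold changes of -0.41 and -0.47. By kind, the medians in experiment 2 were -0.39 for 4 other deacetylases, 0.048 for 10 co-repressor subunits, 0.012 for 8 other acetyltransferases, 0.039 for 18 other methyltransferases, 0.17 for 14 other demethylases and 0.056 for 10 other genes of DNA methylation. In experiment 1 these medians lay between -0.043 and 0.012.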

How the data were processed

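RNA from the NAc of separate rats was sequenced in read pairs. TopHat2 2.0.13 placed these on the rat genome rn6 (Rnor_6.0) and htseq-count counted them per gene. The values deposited by the authors are these raw counts, not normalized. The submitters' processing notes list HTSeq 0.5.3p3 and 0.6.0. The counting options and the annotation release are not given in the sources used here. Reads with several alignments are in no gene count, so genes with close copies are undercounted.

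Groups came from the sample labels and exposures from the study's methods. Each experiment was fitted on its own in edgeR 4.0.16 (R 4.3.3) with TMM, estimateDisp, glmQLFit and glmQLFTest, and p-values were adjusted by Benjamini-Hochberg over the 8655 genes whose base mean exceeded the median (43.64 and 66.44). SE came from fold change and F statistic. Log2 CPM used a prior count of 2. Alternatives were DESeq2 1.42.0, other filters and scaling, the newer quasi-likelihood mode, all 4 groups in one fit, a replicate block, covariates and leaving out each rat, and those with the first principal component or without 4 rats were chosen after seeing the data. Lines that name no gene stayed out of library sizes and tests, and the share of reads outside genes is the no-feature count over its sum with the reads on genes. No pair of libraries agreed within sampling noise (lowest chi-square per degree of freedom 2.67). Values per rat are given for members with an unadjusted p under 0.05, the lowest p of a class or the largest fold change of an experiment, and by name for the 3 lowest p of the wider list. Members and lists were chosen with earlier results of these data known.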

Additional observations from a re-analysis of the deposited data

Results flagged for a closer look

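In 4 groups of experiment 1, 1 rat lay far from the others of its group by Dixon's test, among 112 groups of values scanned (25 members and 3 library measures in each of 4 groups), where chance flags about 1 in 20 (5.6 groups). Prdm2 was at 424.7 normalized counts in water rat 1 and at 493.8 to 513.2 in the other water rats. Dnmt1 was at 217.6 in water rat 1 and at 262 to 279.4 in the others. Dnmt3a was at 229.7 in water rat 4 and at 176.1 to 188.9 in the others. Kat2a was at 504.5 in EtOH rat 1 and at 406.4 to 431.7 in the others.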

How the results depend on the processing

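Of the log2 fold changes of the tested members under the alternatives other than leaving out a rat, 214 of 220 kept their direction in experiment 1 and 215 of 242 in experiment 2, and 201 of 220 and 255 of 264 did when 1 rat was left out. Over these fits 0 were called at an FDR under 0.05, with a lowest FDR of 0.597 in experiment 1 and 0.394 in experiment 2. The number of members with an unadjusted p under 0.05 in experiment 1 was 0 with all 4 groups in one fit and 0 with the first principal component as covariate, which also moved the median to -0.04. It ranged from 0 to 3 when 1 rat was left out (0 without water rat 1 or 5 or EtOH rat 4 or 5, 3 without EtOH rat 1), and the median from -0.034 to -0.002. In experiment 2 it was 3 with all 4 groups in one fit, 2 with the replicate block and 5 without the 4 rats, and ranged from 0 to 4 when 1 rat was left out (2 without water gavage rat 1, 1 without water gavage rat 5 or EtOH gavage rat 3, 4 without EtOH gavage rat 4), with a median from -0.111 to -0.011. The share of all genes at this p also moved with the setting. In experiment 2 it was 1.33% in the main fit and 10.9% without the 4 rats. For the other settings it is not given here, so these counts are not read as a trait of the members. The cause of these changes was not tested.

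The replicate numbers of the labels gave no sign of pairing rats in experiment 1. In experiment 2 the check cannot decide this, since 1 axis carried 74% of the variance between the libraries. Deviations of same-numbered rats had correlations of -0.125 to 0.144 in experiment 1 (1 of 5 over 0.1) and -0.759 to 0.835 in experiment 2 (4 of 6 over 0.1), and 1 and 0 rats correlated best with their own number. With the replicate block, Ehmt1 had a log2 fold change of -0.241 in experiment 1, Hdac10 of -0.909 and Dnmt1 of -0.406 in experiment 2, and 0 members were called.

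With the first principal component as covariate in experiment 1, the log2 fold change reversed to -0.082 for Hdac9, 0.01 for Hdac11, -0.078 for Sirt6, -0.041 for Crebbp, 0.006 for Setdb1 and 0.039 for Kdm6b. In experiment 2, Suv39h1 reversed to 0.011 and 0.009 in DESeq2 without and with a prior and to 0.012 with no filter. With the share of reads outside genes as covariate, reversals were -0.02 for Hdac3, 0.231 for Hdac4, 0.196 for Hdac5, -0.121 for Hdac8, -0.088 for Crebbp, 0.061 for Ehmt1, 0.059 for Ehmt2, -0.08 for Setdb1, -0.013 for Prdm2, -0.048 for Kdm1a, 0.097 for Kdm6b and -0.074 for Mbd1. With the first principal component they were -0.021 for Hdac3, 0.112 for Hdac4, 0.025 for Hdac5, -0.106 for Hdac8, -0.058 for Crebbp, 0.03 for Ehmt1, -0.057 for Setdb1, -0.03 for Kdm1a, 0.03 for Kdm6b and -0.066 for Mbd1, and without the 4 rats 0.073 for Hdac1 and -0.072 for Mbd1. Leaving out 1 rat gave ranges across 0 in experiment 1 for Crebbp (-0.017 to 0.068), Hdac2 (-0.05 to 0.022), Hdac9 (-0.052 to 0.1), Kdm6b (-0.049 to 0.072), Mbd1 (-0.059 to 0.041), Setdb1 (-0.055 to 0.026) and Sirt6 (-0.025 to 0.146), and in experiment 2 for Crebbp (-0.016 to 0.115), Hdac8 (-0.03 to 0.205), Kdm1a (-0.006 to 0.067), Mbd1 (-0.07 to 0.139), Setdb1 (-0.016 to 0.116) and Suv39h1 (-0.137 to 0.036).

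In experiment 2 the 95% interval of 6 of the 22 tested members reached past 1 on the log2 scale, and members under the filter were not tested. P-values of the group comparisons weigh a difference against the spread between these rats.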
